A study of Homo sapiens with 3 samples.

Results

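The genes examined here are the 4 inhibitor of DNA binding genes ID1, ID2, ID3 and ID4, and 6 genes of the bone morphogenetic protein (BMP) pathway, the inhibitory SMADs SMAD6 and SMAD7, the receptor-activated SMAD9, the ligand BMP4, the pseudoreceptor BAMBI and the type II receptor BMPR2. They were taken by symbol from the 58333 genes of the expression table, and all 10 were found in it. Their RNA was measured by poly(A)+ RNA-seq in Cal62 cells, a human thyroid cancer cell line grown in medium with 10% fetal bovine serum. The cells had been transfected with a control siRNA (siControl) or with 1 of 2 siRNAs against ADAR1, the enzyme that converts adenosine to inosine in double-stranded RNA (siADAR1 #1 and siADAR1 #2). Both siADAR1 siRNAs are directed at the p110 and the p150 form of ADAR1. Each of the 3 groups had 2 biological replicates, for 6 libraries in all. The p-values here rest on the spread between 2 cultures per group of a single cell line. That spread was moderated by limma toward the spread of genes of like level.

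BMP ligands bind a complex of type I and type II receptor kinases at the cell surface. The type II receptor activates the type I receptor, which phosphorylates SMAD1, SMAD5 and SMAD9, and these enter the nucleus with SMAD4 and bind the promoters of target genes. ID1, ID2 and ID3 are classical early targets of this signal, and their proteins bind E proteins and keep them, and the basic helix-loop-helix factors that pair with them, off DNA. SMAD6, SMAD7 and BAMBI are induced by the same signal and restrain it.

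Of the 10 genes, 9 passed the filter on low values and were tested, and ID4 did not. A gene was called changed when limma gave an adjusted p under 0.05 and a log2 fold change (log2FC) beyond 0.5 in either direction. ID1, ID3 and BMPR2 fell with both siADAR1 siRNAs. SMAD9 fell and BMP4 rose with siADAR1 #2, and for both genes the change with siADAR1 #2 also differed from that with siADAR1 #1 when the siRNAs were compared directly. ID2, SMAD6, SMAD7 and BAMBI were not called in any of these comparisons. With siADAR1 #1, 3 of the 9 tested members were called, all lower, where 16.8% of the 20858 genes tested were called in either direction, 10.6% lower and 6.18% higher. With siADAR1 #2, 4 members were called lower and 1 higher, against 26.6% of all genes in either direction, 15.5% lower and 11.1% higher. The median log2FC over the 9 members was 0.24 with siADAR1 #1 and -0.65 with siADAR1 #2, beside medians of -0.02 and -0.01 over all genes tested. Both comparisons use the same siControl libraries. ID1 is among the genes that the study chose from these libraries for measurement by qPCR, so its fall is not independent evidence.

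**Figure D1:**
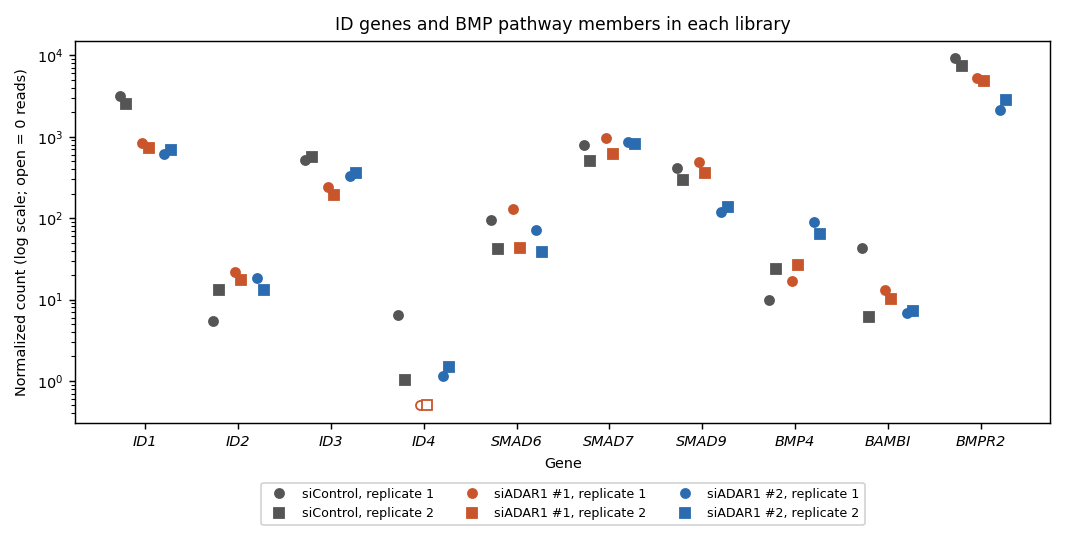
Normalized count of each of the 10 genes (log scale) in each of the 6 libraries, with a circle for replicate 1, a square for replicate 2 and 1 colour per group. Open symbols, drawn at the foot of the axis, are libraries with 0 reads. The 4 siADAR1 libraries of ID1, ID3 and BMPR2 all lie below both siControl libraries, and only the siADAR1 #2 libraries stand apart from siControl for SMAD9 and BMP4.

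The DNA just before the start sites of the 3 genes that fell with both siRNAs is shown because activated SMADs act on target genes through short elements that can lie near such starts. Each line gives the 250 bases before the start, from RefSeq (GRCh38.p14), read 5′ to 3′ on the gene's own strand. Capitals mark matches to GGCGCC, a GC-rich element bound by BMP-activated SMADs that reads the same on both strands, and to CAGAC, the SMAD box, on either strand. The ID1 window lies at chr20:31605039-31605288 on the forward strand, that of ID3 at chr1:23559502-23559751 on the reverse strand and that of BMPR2 at chr2:202376077-202376326 on the forward strand. The windows follow RefSeq starts, and the ID1 window runs past the GENCODE gene start given below, 31605283.
ID1: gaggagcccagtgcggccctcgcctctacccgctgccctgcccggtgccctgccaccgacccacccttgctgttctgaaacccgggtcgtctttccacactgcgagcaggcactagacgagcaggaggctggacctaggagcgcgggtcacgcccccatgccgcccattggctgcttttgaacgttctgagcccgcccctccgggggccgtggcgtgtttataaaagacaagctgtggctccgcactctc
ID3: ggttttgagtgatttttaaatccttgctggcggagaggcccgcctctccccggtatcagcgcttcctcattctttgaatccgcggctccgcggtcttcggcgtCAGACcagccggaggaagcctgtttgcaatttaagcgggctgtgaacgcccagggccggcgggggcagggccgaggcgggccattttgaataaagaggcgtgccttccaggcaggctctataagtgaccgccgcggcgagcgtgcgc
BMPR2: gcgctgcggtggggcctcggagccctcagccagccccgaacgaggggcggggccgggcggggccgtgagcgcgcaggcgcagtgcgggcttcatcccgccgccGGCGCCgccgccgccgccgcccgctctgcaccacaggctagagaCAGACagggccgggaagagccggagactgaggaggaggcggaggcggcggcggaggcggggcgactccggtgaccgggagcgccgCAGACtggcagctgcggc
The ID1 window held neither set of letters. DNA farther from the starts than 250 bases was not searched, so elements there would not be seen. The ID3 window held a CAGAC that begins 147 bases before the start. The BMPR2 window held GGCGCC at 147 bases and CAGAC at 103 and at 18 bases before the start. No match overlapped another. Among all 35116 promoter windows of this length, 16.4% held GGCGCC and 38.0% held CAGAC, so that the matches are common letters and describe the windows only. The 10 genes have 14 promoter windows in this table, of which 3 held GGCGCC and 8 held CAGAC, with 3 GGCGCC matches in the BAMBI window alone.

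ID1 (ENSG00000125968) lies on the forward strand of chromosome 20, at 31605283 to 31606515 (GRCh38). Its normalized counts were 3168 and 2492 in siControl cells, 835 and 720 with siADAR1 #1, and 612 and 694 with siADAR1 #2. Both siControl libraries were above all 4 libraries of ADAR1-silenced cells. The siRNA groups did not overlap with each other on this scale. They overlapped when reads were scaled by exon length and library total (51.9 and 43.2 with siADAR1 #1, 38.9 and 47.1 with siADAR1 #2). The fall was 3.62-fold with siADAR1 #1 (log2FC -1.85, SE 0.17, limma adjusted p = 0.00223) and 4.30-fold with siADAR1 #2 (log2FC -2.10, SE 0.17, adjusted p = 0.000339). ID1 kept its call under each of the other settings and with each library left out, with adjusted p-values up to 0.0373 for siADAR1 #1 and 0.0109 for siADAR1 #2. Between the siRNAs, ID1 differed by -0.25 on the log2 scale, with a 95% interval of -0.64 to 0.14 (limma adjusted p = 0.292). A difference between the siRNAs of up to 0.64 is therefore inside the interval.

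ID3 (ENSG00000117318), a second target with the same helix-loop-helix fold, lies on the reverse strand of chromosome 1 at 23557926 to 23559501. It gave normalized counts of 521 and 558 in siControl cells, 238 and 193 with siADAR1 #1, and 329 and 356 with siADAR1 #2. The 3 groups did not overlap, with siADAR1 #1 lowest and siADAR1 #2 between it and siControl. The fall was 2.49-fold with siADAR1 #1 (log2FC -1.32, SE 0.19, limma adjusted p = 0.00509) and 1.57-fold with siADAR1 #2 (log2FC -0.65, SE 0.19, adjusted p = 0.0341). The change was smaller with siADAR1 #2 by 0.67 on the log2 scale (95% interval 0.23 to 1.10, limma adjusted p = 0.0263), and this difference kept its call in 10 of 16 alternatives. It was lost with median-centred libraries (0.54, adjusted p = 0.0733), quantile normalization (0.54, adjusted p = 0.0716) and the 4 libraries of these groups alone (0.67, adjusted p = 0.0531), and without siADAR1 #1 replicate 2 or either siADAR1 #2 library (0.52 to 0.72, adjusted p = 0.0758 to 0.113). The call with siADAR1 #1 was lost without siControl replicate 1 (log2FC -1.37, adjusted p = 0.0530). The call with siADAR1 #2 was lost under 5 of the other settings, such as no filter on low values (adjusted p = 0.0538) and limma's voom on recovered reads (log2FC -0.49, adjusted p = 0.107), and without any 1 of the siControl or siADAR1 #2 libraries (log2FC -0.71 to -0.60, adjusted p = 0.0842 to 0.155).

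ID2 (ENSG00000115738), which lies on the forward strand of chromosome 2 at 8678845 to 8684461, was barely expressed in these cells. Its normalized counts were 5.45 and 13.3 in siControl cells, 21.5 and 17.6 with siADAR1 #1, and 18.1 and 13.2 with siADAR1 #2. The siADAR1 #1 libraries lay above both siControl libraries, while 1 siADAR1 #2 library overlapped with them. The log2FC was 0.99 (SE 0.45, limma adjusted p = 0.177) with siADAR1 #1 and 0.70 (SE 0.45, adjusted p = 0.293) with siADAR1 #2. ID2 shares 145 exon bases with the antisense gene ID2-AS1, which had 0 to 3 reads per library.

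ID4 (ENSG00000172201), on the forward strand of chromosome 6 at 19837370 to 19842197, had 6 and 1 reads in siControl cells, 0 and 0 with siADAR1 #1, and 1 and 1 with siADAR1 #2. A library with 0 reads allows up to 3, and 3 reads correspond to 2.81 to 4.39 normalized counts in these libraries. Such limits cover counting error only. ID4 lay under the filter, so no difference between the groups was tested.

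The makeup of the ID family was compared on a scale of reads per exon base, rescaled to the same total in every library (TPM). The summed level of the 4 genes was 186 and 193 TPM in siControl cells, 64.9 and 53.4 TPM with siADAR1 #1, and 56.8 and 67.6 TPM with siADAR1 #2. ID1 supplied 87.9% and 84.2% of that sum in siControl cells, 80.0% and 81.0% with siADAR1 #1, and 68.5% and 69.7% with siADAR1 #2. ID3 supplied 11.9% and 15.5% in siControl cells, 18.8% and 17.9% with siADAR1 #1, and 30.3% and 29.5% with siADAR1 #2. The groups did not overlap in any of these shares, with siADAR1 #2 farthest from siControl. ID1 and ID3 made up nearly all of the sum, so the ID3 share mirrors the ID1 share and is no separate observation. Shares of a sum were not tested, since 2 libraries against 2 allow no small p in an exact test.

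BMPR2 (ENSG00000204217), the type II receptor kinase specific to BMP ligands among those listed, lies on the forward strand of chromosome 2 at 202376327 to 202567751. Its normalized counts were 9245 and 7405 in siControl cells, 5217 and 4783 with siADAR1 #1, and 2103 and 2828 with siADAR1 #2. The groups stood in that order with no overlap. The fall was 1.66-fold with siADAR1 #1 (log2FC -0.73, SE 0.17, limma adjusted p = 0.0246) and 3.39-fold with siADAR1 #2 (log2FC -1.76, SE 0.17, adjusted p = 0.000500). BMPR2 was 2.05-fold lower with siADAR1 #2 than with siADAR1 #1 (log2FC -1.03, SE 0.17, limma adjusted p = 0.00279). The call with siADAR1 #2 held under every setting tried (adjusted p up to 0.0130). The call with siADAR1 #1 was lost with a constant prior variance (adjusted p = 0.10) and without any 1 of the siControl or siADAR1 #1 libraries (log2FC -0.89 to -0.57, adjusted p = 0.0606 to 0.159). BMPR2 shares 57 exon bases with an unnamed gene on the same strand, ENSG00000289490.

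The other type II receptors that can pair with BMPR1A or ACVR1, the activin receptors ACVR2A and ACVR2B, did not fall in this way. ACVR2A gave 882 and 693 normalized counts in siControl cells, 1202 and 904 with siADAR1 #1, and 1086 and 981 with siADAR1 #2, and was not called with either siRNA (limma adjusted p = 0.180 and 0.160). ACVR2B rose with siADAR1 #1 (log2FC 1.18, SE 0.30, adjusted p = 0.0302) and was not called with siADAR1 #2 (log2FC -0.28, SE 0.30, adjusted p = 0.524). Of the summed TPM of the 3 type II receptors, BMPR2 made up 71.6% and 74.6% in siControl cells, 43.4% and 52.2% with siADAR1 #1, and 37.9% and 48.0% with siADAR1 #2. The siControl libraries were above all 4 siADAR1 libraries, and the siRNA groups overlapped. The sum itself was 65.9 and 63.7 TPM in siControl cells, 73.7 and 54.2 TPM with siADAR1 #1, and 34.8 and 39.5 TPM with siADAR1 #2. ACVR2A and ACVR2B were chosen as comparators after their values were seen.

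**Figure D2:**
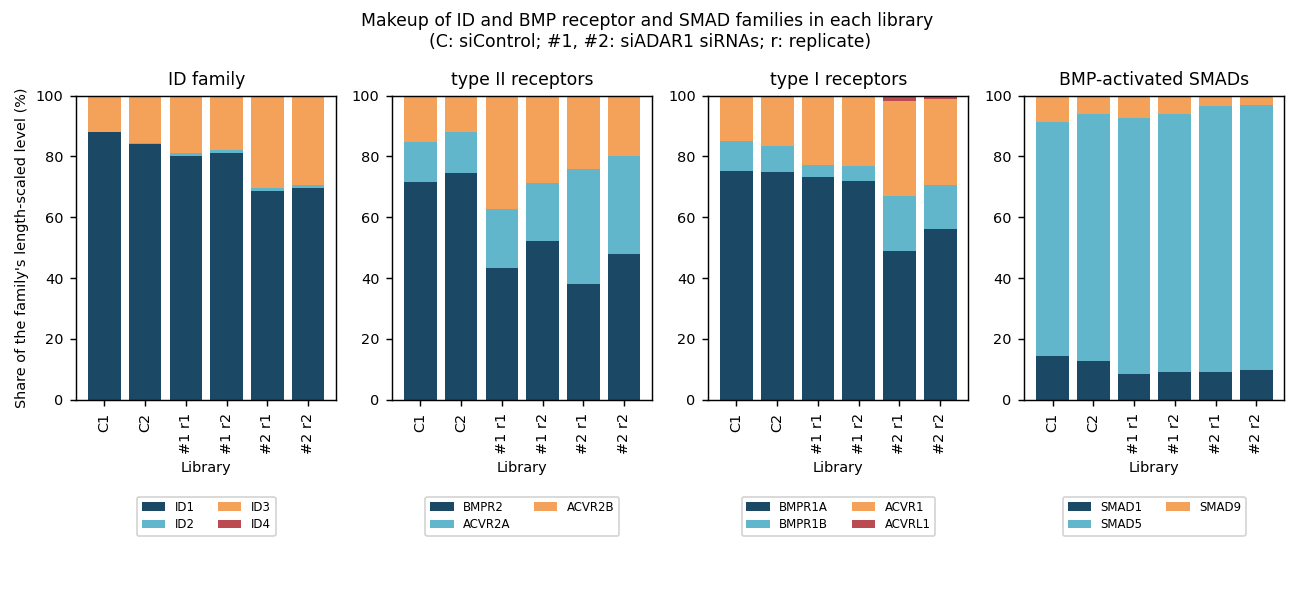
Share (%) of the summed length-scaled level (TPM) taken by each gene of 4 families in each of the 6 libraries, 1 bar per library stacked to 100%. ID1 takes 84.2% to 87.9% of the ID family in siControl cells and 68.5% to 69.7% with siADAR1 #2, BMPR2 takes 71.6% to 74.6% of the type II receptors in siControl cells and at most 52.2% in ADAR1-silenced cells, and SMAD5 is the main BMP-activated SMAD in every library.

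SMAD9 (ENSG00000120693), a receptor-activated SMAD of the BMP branch, lies on the reverse strand of chromosome 13 at 36844831 to 36920887. It gave normalized counts of 412 and 297 in siControl cells, 490 and 361 with siADAR1 #1, and 118 and 136 with siADAR1 #2. The siControl and siADAR1 #1 libraries overlapped, and both siADAR1 #2 libraries lay below all others. SMAD9 fell 2.72-fold with siADAR1 #2 (log2FC -1.45, SE 0.25, limma adjusted p = 0.00405) and was not called with siADAR1 #1 (log2FC 0.26, 95% interval -0.31 to 0.84, adjusted p = 0.512). The difference between the siRNAs was -1.71 on the log2 scale (SE 0.25, limma adjusted p = 0.00153), which held under every setting and with each library left out (adjusted p up to 0.0113). SMAD9 supplied 8.6% and 6.19% of the summed TPM of SMAD1, SMAD5 and SMAD9 in siControl cells, 7.22% and 6.11% with siADAR1 #1, and 3.29% and 3.22% with siADAR1 #2.

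BMP4 (ENSG00000125378), the ligand, lies on the reverse strand of chromosome 14 at 53949736 to 53958761. Its normalized counts were 9.80 and 23.5 in siControl cells, 16.8 and 26.4 with siADAR1 #1, and 88.4 and 64.4 with siADAR1 #2. Both siADAR1 #2 libraries lay above all others, and the siControl and siADAR1 #1 libraries overlapped. BMP4 rose 4.39-fold with siADAR1 #2 (log2FC 2.13, SE 0.45, limma adjusted p = 0.0102) and was not called with siADAR1 #1 (log2FC 0.41, 95% interval -0.64 to 1.46, adjusted p = 0.589). The siRNAs differed by 1.73 on the log2 scale (SE 0.45, limma adjusted p = 0.0196). The rise with siADAR1 #2 was no longer called without siControl replicate 1 (log2FC 1.59, adjusted p = 0.0672) or without siADAR1 #2 replicate 1 (log2FC 1.91, adjusted p = 0.0664). The difference between the siRNAs was no longer called without replicate 1 of siADAR1 #1 (1.44, adjusted p = 0.0983) or of siADAR1 #2 (1.505, adjusted p = 0.104). BMP4 shares 506 exon bases with a gene on the opposite strand, ENSG00000287156, and the strand setting of the counting is not given in the sources used here, so that reads of the pair cannot be told apart.

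SMAD7 (ENSG00000101665), which blocks the receptors and brings them to ubiquitin ligases, lies on the reverse strand of chromosome 18 at 48919853 to 48950965. It gave normalized counts of 799 and 502 in siControl cells, 965 and 608 with siADAR1 #1, and 855 and 825 with siADAR1 #2. The groups overlapped for siADAR1 #1, and both siADAR1 #2 libraries were above siControl. The log2FC was 0.27 (95% interval -0.36 to 0.91, limma adjusted p = 0.544) with siADAR1 #1 and 0.41 (95% interval -0.23 to 1.04, adjusted p = 0.315) with siADAR1 #2.

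SMAD6 (ENSG00000137834), the inhibitory SMAD that acts mainly on BMP signals, lies on the forward strand of chromosome 15 at 66702236 to 66782849. It gave 94.7 and 41.8 normalized counts in siControl cells, 131 and 42.7 with siADAR1 #1, and 71.4 and 38.1 with siADAR1 #2. Replicate 1 was above replicate 2 in each group, by 2.27 times in siControl cells, 3.07 times with siADAR1 #1 and 1.88 times with siADAR1 #2, and the groups overlapped. The log2FC was 0.24 (SE 0.59, limma adjusted p = 0.822) with siADAR1 #1 and -0.26 (SE 0.59, adjusted p = 0.785) with siADAR1 #2. Neither direction held when libraries were left out in turn.

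BAMBI (ENSG00000095739), a pseudoreceptor without a kinase domain, lies on the forward strand of chromosome 10 at 28677510 to 28682932. It gave normalized counts of 43.6 and 6.12 in siControl cells, 13.1 and 10.0 with siADAR1 #1, and 6.80 and 7.32 with siADAR1 #2. Only siControl replicate 1 was high, at 7.12 times the other siControl library, which lay below all 4 siADAR1 libraries. With siADAR1 #2 the log2FC was -1.07 (SE 0.72, limma adjusted p = 0.313), it was -2.29 without siControl replicate 2 (adjusted p = 0.0237) and 0.16 without siControl replicate 1 (adjusted p = 0.869). CDH1, an epithelial cadherin, was also high in siControl replicate 1, at 210 normalized counts, and in siADAR1 #2 replicate 1, at 196, against 36.6 to 52.8 in the other 4 libraries. In siADAR1 #2 replicate 1, BAMBI was at 6.80. In these groups, the epithelial genes KRT8, KRT18 and EPCAM differed between replicates by less, in proportion, than CDH1. In siControl replicates 1 and 2, KRT8 gave 39069 and 30769 normalized counts, KRT18 48692 and 38662, and EPCAM 1926 and 1681. With siADAR1 #2, replicates 1 and 2 gave 43025 and 36104 for KRT8, 25217 and 23116 for KRT18, and 2140 and 2366 for EPCAM. Whether the values of CDH1 and BAMBI are linked was not tested.

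**Figure D3:**
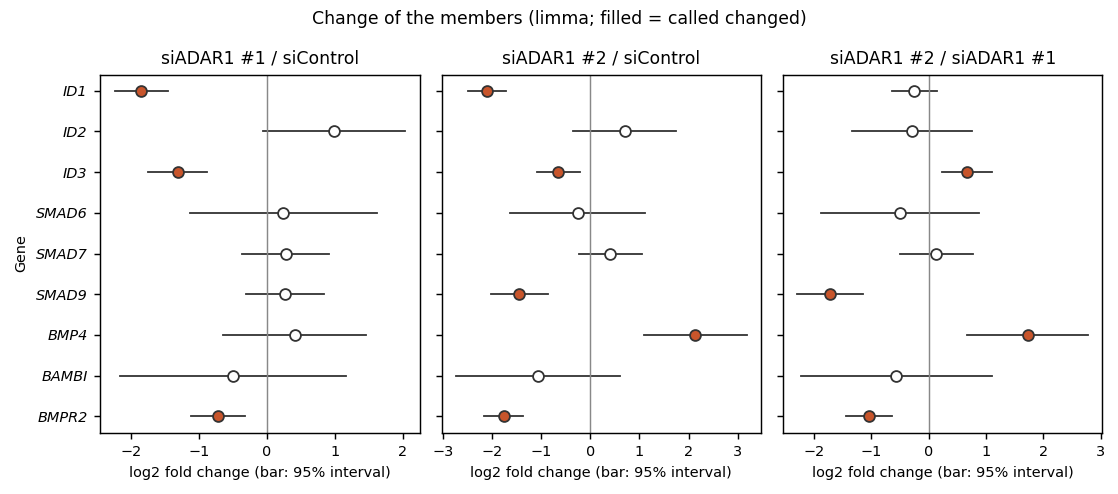
Log2 fold change of the 9 tested genes in 3 comparisons, as points with 95% intervals from limma, filled where the gene was called changed. ID1 is filled with both siRNAs and lies near 0 between them, SMAD9 (-1.71) and BMP4 (1.73) separate the siRNAs, and the intervals of ID2, SMAD6, SMAD7 and BAMBI include 0 in all 3 comparisons.

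When siADAR1 #2 was compared directly with siADAR1 #1, 4 of the 9 members were called, SMAD9 and BMPR2 lower and ID3 and BMP4 higher with siADAR1 #2. Over all genes tested, 32.8% were called in this comparison, 16.1% lower and 16.7% higher. ID2 differed by -0.29 (95% interval -1.34 to 0.76), SMAD6 by -0.50 (-1.88 to 0.87), SMAD7 by 0.13 (-0.50 to 0.77) and BAMBI by -0.56 (-2.23 to 1.11), all on the log2 scale. These intervals are wide and leave room for differences of the size seen for ID3. With the 4 siADAR1 libraries taken as 1 group against the 2 siControl libraries, limma called 0 members and 0% of all genes, with 2916 genes and 3 members at an unadjusted p under 0.05. In that comparison the log2FC of ID1 was -1.98 (SE 0.21, adjusted p = 0.0988). The average of the 2 siRNA changes, fitted with 3 groups, called 3 members (ID1, ID3 and BMPR2) and 3585 genes.

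Ranked by length-scaled level in siControl cells, ID1 came first at 163 ± 1.16 TPM (SD, n = 2), followed by BMPR2 at 47.3 ± 0.27, ID3 at 26.1 ± 5.48, SMAD7 at 11.6 ± 1.92 and SMAD9 at 4.2 ± 0.29. BAMBI, SMAD6, BMP4 and ID2 followed at 0.76 ± 0.76, 0.55 ± 0.22, 0.41 ± 0.29 and 0.32 ± 0.23 TPM, and their libraries overlapped, so these 4 have no order beyond their spread. ID4 was last at 0.064 ± 0.061 TPM. With siADAR1 #1 the order began with ID1 (47.6 ± 6.14 TPM) and BMPR2 (30.2 ± 2.58), and the libraries of SMAD7 (15.1 ± 5.19) and ID3 (10.9 ± 1.87) overlapped. With siADAR1 #2, ID1 again came first (43.0 ± 5.82 TPM), and ID3 (18.6 ± 1.90), SMAD7 (17.2 ± 0.37) and BMPR2 (16.1 ± 4.07) overlapped. BMP4 (1.99 ± 0.35 TPM) and SMAD9 (1.73 ± 0.26) also overlapped there.

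The genes whose log2 values followed those of ID1 most closely over the 6 libraries were SNTB2, ANKRD18B and LOXL3, with Pearson r of 0.998, 0.995 and 0.995. SNTB2 gave 3410 and 3006 normalized counts in siControl cells and 1837 to 2102 in the 4 siADAR1 libraries. An r over 0.95 was found for 254 of the other 20857 genes tested, and the points share only 3 groups, so these values describe the libraries. Among the members, r with ID1 was 0.868 for BMPR2 and 0.791 for ID3.

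The rest of the pathway was described by lists of its ligands, receptors, SMADs, antagonists, intracellular regulators and targets, and of the E proteins, read against the background shares given above. Of the 16 other BMP and GDF ligands, 11 lay under the filter, with at most 22 reads in a library. None of the 5 tested was called with siADAR1 #1, where 2 had an unadjusted p under 0.05 in limma and the smallest adjusted p was 0.0701, and GDF11, a ligand of the activin branch, fell with siADAR1 #2. GDF11 gave 3048 and 3552 normalized counts in siControl cells, 2055 and 2858 with siADAR1 #1, and 1594 and 1895 with siADAR1 #2 (log2FC -0.92, SE 0.18, limma adjusted p = 0.00778, for the last). BMP1, a protease that cuts the BMP antagonist chordin and is no BMP ligand in spite of its name, was higher with siADAR1 #2 than with siADAR1 #1 (difference 0.83, SE 0.16, adjusted p = 0.00524). BMP6 had 6.80 to 15.9 normalized counts and was not called (smallest adjusted p = 0.134).

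Of the 11 other receptors and co-receptors, 10 were tested. With siADAR1 #1, 1 was called lower and 3 higher, and with siADAR1 #2, 3 were called lower and 1 higher. Between the siRNAs, 3 were lower and 3 higher with siADAR1 #2. The 1 called higher against siControl, and 1 of the 3 higher between the siRNAs, was ACVRL1, a type I receptor of endothelium. ACVRL1 had 2.18 and 5.10 normalized counts in siControl cells, 8.42 and 2.51 with siADAR1 #1, and 36.3 and 29.3 with siADAR1 #2, so it passed the filter only through the group where it is high and its calls are not counted as support. NEO1 (neogenin, which binds the co-receptors of the RGM family) moved in opposite directions. NEO1 gave 3755 and 3477 normalized counts in siControl cells, 6571 and 6470 with siADAR1 #1, and 1067 and 1485 with siADAR1 #2. The groups did not overlap, and NEO1 rose with siADAR1 #1 (log2FC 0.85, SE 0.16, limma adjusted p = 0.0125) and fell with siADAR1 #2 (log2FC -1.52, SE 0.16, adjusted p = 0.000705).

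The type I receptors BMPR1A and BMPR1B also differed by siRNA. ACVR1 was not called between the siRNAs (difference -0.13, SE 0.13, limma adjusted p = 0.477). It was called higher with siADAR1 #1 (log2FC 0.52, SE 0.13, adjusted p = 0.0292). With siADAR1 #2 it was not called (0.39, SE 0.13, adjusted p = 0.0555). BMPR1A gave 4457 and 4126 normalized counts in siControl cells, 4247 and 3932 with siADAR1 #1, and 1845 and 2326 with siADAR1 #2, where it fell (log2FC -1.05, SE 0.14, limma adjusted p = 0.00155). BMPR1B gave 387 and 309 in siControl cells, 148 and 181 with siADAR1 #1, and 437 and 393 with siADAR1 #2. It fell with siADAR1 #1 (log2FC -1.07, SE 0.21, limma adjusted p = 0.0138) and was not called with siADAR1 #2 (log2FC 0.26, SE 0.21, adjusted p = 0.406). The differences between the siRNAs were -0.98 for BMPR1A (limma adjusted p = 0.0015) and 1.33 for BMPR1B (adjusted p = 0.00227). BMPR1A supplied 75.1% and 74.8% of the summed TPM of the 4 type I receptors in siControl cells, 73.2% and 71.9% with siADAR1 #1, and 49.1% and 56.1% with siADAR1 #2.

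SMAD1, SMAD4 and SMAD5 were all tested. With siADAR1 #1, 0 of the 3 were called by limma, with SMAD5 at an unadjusted p under 0.05 and just inside the fold threshold (log2FC 0.50, SE 0.13, adjusted p = 0.0318). With siADAR1 #2, SMAD1 (log2FC -0.83, SE 0.18, limma adjusted p = 0.0107) and SMAD4 (-0.64, SE 0.15, adjusted p = 0.0148) fell and SMAD5 was not called (-0.15, SE 0.13, adjusted p = 0.409). All 3 were lower with siADAR1 #2 than with siADAR1 #1, by -0.59 to -0.65 on the log2 scale. SMAD5 was the main BMP-activated SMAD in each library, at 76.9% to 87.7% of the summed TPM of SMAD1, SMAD5 and SMAD9.

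Of the 16 extracellular antagonists and modulators, 10 were tested, and 3 were called with siADAR1 #1 (1 lower, 2 higher) and 5 with siADAR1 #2 (3 lower, 2 higher). Of the 3 lower with siADAR1 #2, CHRD (chordin) had low counts. CHRD gave 34.8 and 17.3 normalized counts in siControl cells and 0 and 7.32 with siADAR1 #2 (limma log2FC -2.95, SE 0.94, adjusted p = 0.0486). FSTL3, a follistatin-like protein that binds activins and BMPs, rose with both siRNAs. It gave 170 and 184 normalized counts in siControl cells, 357 and 289 with siADAR1 #1, and 509 and 467 with siADAR1 #2 (limma log2FC 0.85 and 1.45, SE 0.19 each, adjusted p = 0.0217 and 0.00152). GREM1 (gremlin 1), which sequesters BMP2 and BMP4, was the most read of the named antagonists. Its normalized counts were 13159 and 9392 in siControl cells, 19396 and 12054 with siADAR1 #1, and 5704 and 6320 with siADAR1 #2. GREM1 fell with siADAR1 #2 (log2FC -0.89, SE 0.24, limma adjusted p = 0.0249) and was not called with siADAR1 #1 (0.46, SE 0.24, adjusted p = 0.223). NBL1, an antagonist of the DAN family, was higher with siADAR1 #2 than with siADAR1 #1 (difference 0.63, SE 0.14, adjusted p = 0.00902).

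Of the 11 intracellular regulators, 10 were tested, with 1 called lower and 2 higher with siADAR1 #1 and 2 lower and 0 higher with siADAR1 #2 (limma, where these 2 were also the only ones at an unadjusted p under 0.05). SKI, a corepressor that binds SMADs, gave 4055 and 3460 normalized counts in siControl cells, 1749 and 1687 with siADAR1 #1, and 4066 and 3599 with siADAR1 #2. It fell with siADAR1 #1 (log2FC -1.12, SE 0.13, limma adjusted p = 0.00320) and was not called with siADAR1 #2 (0.03, SE 0.13, adjusted p = 0.890). SMURF2, a ubiquitin ligase for SMADs and their receptors, rose with siADAR1 #1 (log2FC 0.81, SE 0.10, adjusted p = 0.00365) and was not called with siADAR1 #2 (0.08, SE 0.10, adjusted p = 0.584). TOB1, which holds back SMAD activity, fell with siADAR1 #2 (log2FC -1.08, SE 0.17, limma adjusted p = 0.00302) and was not called with siADAR1 #1 (0.48, SE 0.17, adjusted p = 0.0925). All 3 differed between the siRNAs (adjusted p = 0.000542 to 0.00137).

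Of the 11 other transcriptional targets, 8 were tested, with 1 lower and 1 higher with siADAR1 #1, 2 lower and 1 higher with siADAR1 #2, and 4 lower and 1 higher with siADAR1 #2 than with siADAR1 #1. Of these 4, DLX3 passed the filter only through siADAR1 #1, where it is high (group means of 7.52 normalized counts in siControl cells, 27.4 with siADAR1 #1 and 3.57 with siADAR1 #2), and is not counted as support. The osteogenic factor RUNX2 fell with both siRNAs. It gave 3994 and 2602 normalized counts in siControl cells, 1187 and 930 with siADAR1 #1, and 1069 and 1223 with siADAR1 #2 (limma log2FC -1.62 and -1.49, SE 0.22 each, adjusted p = 0.00451 and 0.00217). MSX1, a homeobox target of BMP signals, gave 401 and 404 in siControl cells, 226 and 310 with siADAR1 #1, and 144 and 154 with siADAR1 #2, where it fell (log2FC -1.42, SE 0.22, adjusted p = 0.00250). With siADAR1 #1 its log2FC was -0.60 (SE 0.22, adjusted p = 0.0972). JUNB, an AP-1 subunit that BMP and TGF-beta signals induce, rose with siADAR1 #1, from 1018 and 1110 to 2378 and 2882 normalized counts (log2FC 1.30, SE 0.15, limma adjusted p = 0.00320), and was not called with siADAR1 #2 (0.28, SE 0.15, adjusted p = 0.215).

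The E proteins, which ID proteins bind, were all tested. TCF12 gave 9818 and 7830 normalized counts in siControl cells, 5496 and 5940 with siADAR1 #1, and 3131 and 4542 with siADAR1 #2, and fell with siADAR1 #2 (log2FC -1.22, SE 0.19, limma adjusted p = 0.00273). TCF3 also fell with siADAR1 #2 (log2FC -0.70, SE 0.12, adjusted p = 0.00488), while TCF4 was not called (0.15, SE 0.26, adjusted p = 0.713). With siADAR1 #1, 0 of the 3 were called by limma, and TCF12 had an unadjusted p under 0.05 (log2FC -0.62, SE 0.19, adjusted p = 0.0588).

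**Figure D4:**
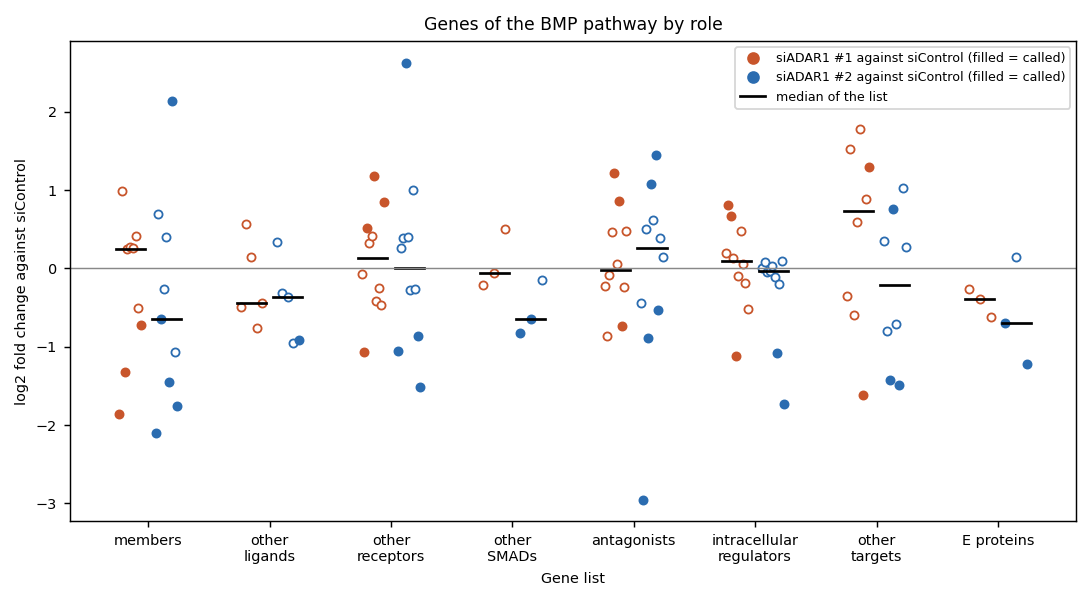
Log2 fold change against siControl of each tested gene of the 10 members and of 7 pathway lists, for siADAR1 #1 and siADAR1 #2, with called genes filled and the list's median as a black line. Each list holds genes on both sides of 0 with at least 1 of the siRNAs.

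The libraries held 30114840 to 50029763 gene reads each. Counting error is therefore small for ID1, ID3, SMAD7, SMAD9 and BMPR2 and larger for ID2, SMAD6, BMP4 and BAMBI. ADAR, the silenced gene, fell from 10906 and 11701 normalized counts in siControl cells to 1328 and 2246 with siADAR1 #1 and 1663 and 2928 with siADAR1 #2 (limma log2FC -2.71 and -2.35, adjusted p = 0.00295 and 0.00128), with all 4 siADAR1 libraries below both siControl libraries. The thyroid factors PAX8, FOXE1 and HHEX and the keratins KRT8 and KRT18 were read in every library, while NKX2-1 had 0 reads in all 6. With siADAR1 #2, PAX8 (limma log2FC -1.99, SE 0.33, adjusted p = 0.00354), FOXE1 (-1.21, SE 0.32, adjusted p = 0.0239) and KRT18 (-0.85, SE 0.13, adjusted p = 0.00271) fell. These are 2 of the 6 tested thyroid markers and 1 of the 4 epithelial markers, beside 26.6% of all genes tested called in either direction. None of these 10 markers was called with siADAR1 #1, where 16.8% of all genes tested were. Of the 10, 3 had an unadjusted p under 0.05 in limma with siADAR1 #1. Over 7 markers of leukocytes, endothelium, red cells and fibroblasts, the summed level was 8.31 to 17.0 TPM in siControl cells, 16.5 to 22.3 TPM with siADAR1 #1 and 29.4 to 61.1 TPM with siADAR1 #2. Nearly all of this sum was CD68, and the other 6 markers together gave 1.09 and 1.51 TPM in siControl cells, 1.46 and 1.39 TPM with siADAR1 #1, and 0.53 and 0.47 TPM with siADAR1 #2. CD3E was at 0 reads in all libraries. PTPRC and HBA1 were at 0 in both siADAR1 #2 libraries, and at 3 to 5 and 7 to 12 reads in the others. PECAM1 had 5 to 34 reads per library, CDH5 6 to 30 and DCN 0 to 6. Of the 7, 3 were tested, and 1 of these, the lysosomal CD68, rose with siADAR1 #2 (limma log2FC 1.80, SE 0.37, adjusted p = 0.00880). The part of these changes in the values of SMAD9, BMP4 and BMPR2 with siADAR1 #2 was not tested. In RNA from whole cultures, fewer cells that express a gene and less of its RNA per cell cannot be told apart.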

How the data were processed

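Poly(A)+ RNA from 3 groups of Cal62 cells, with 2 biological replicates each, was sequenced by the authors with 75-bp paired-end reads. The authors deposited log2 values: gene counts divided by size factors and passed through a variance-stabilizing curve. Per the labels, the submitters' processing notes name FastQC, Salmon, featureCounts and GRCh38, without versions. When the curve was undone, 100% of the values came out as whole reads (tolerance 0.1), and the normalized counts printed are from this step. All columns were used. TPM values were computed from these reads and exon lengths of GENCODE release 44, found for 57830 of the 58333 genes. Depth was 30114840 to 50029763 reads per library, which limits the precision of low genes such as ID2 and ID4.

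Groups were compared on the log2 scale with the R package limma (version 3.58.1, R 4.3.3, moderated two-sided tests with a mean-variance trend, Benjamini-Hochberg adjustment over all 20858 genes tested). Residual degrees of freedom were 3 with separate siRNA groups and 4 with the siRNAs pooled. Genes were kept at a mean log2 value of log2 of 10 or more, a cutoff that equals 7.62 normalized counts. Genes were called at an adjusted p under 0.05 and a log2FC beyond 0.5. Simulated libraries with 200 changed genes were used to test the code. All 10 members and ADAR were named, with up to 3 genes of each pathway list, those with the smallest adjusted p over the 3 comparisons of the 3-group fit, and the 3 genes most correlated with ID1. ACVR1, ACVR2A, ACVR2B, ACVRL1, CHRD, DLX3, CDH1 and the markers were named outside this rule, after their values were seen. The members and lists were chosen with earlier results of these data known. Promoters are from RefSeq. Alternatives covered the filter, scaling, prior variance, libraries fitted, a replicate block, voom and each library left out.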

Additional observations from a re-analysis of the deposited data

Results flagged for a closer look

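For 4 of the genes, the change with siADAR1 #2 differed from the change with siADAR1 #1 in limma's test of the difference itself. The difference (siADAR1 #2 minus siADAR1 #1, log2 scale) was 0.67 for ID3, -1.71 for SMAD9, 1.73 for BMP4 and -1.03 for BMPR2, with adjusted p = 0.0263, 0.00153, 0.0196 and 0.00279. ID3 was lower with siADAR1 #1, a difference that kept its call in 10 of 16 alternatives (adjusted p up to 0.113). BMPR2 was lower with siADAR1 #2, in 16 of 16 alternatives (adjusted p up to 0.0243). SMAD9 and BMP4 were called with siADAR1 #2 alone. The siRNAs left ADAR at 1328 and 2246 normalized counts (siADAR1 #1) and 1663 and 2928 (siADAR1 #2), and its difference between them was 0.35 (95% interval -0.34 to 1.05, limma adjusted p = 0.404). Groups of 2 libraries are too small for a test of single outlying samples.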

How the results depend on the processing

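The number of members called ranged from 1 to 3 with siADAR1 #1, from 3 to 5 with siADAR1 #2, from 2 to 4 between the siRNAs and from 0 to 0 with the siRNAs as 1 group when each library was left out in turn, with the lone library of a group assumed to vary like the others. The lowest counts came without siControl replicate 1 (1 with siADAR1 #1, 3 with siADAR1 #2) and without siADAR1 #2 replicate 1 (3 with siADAR1 #2, 2 between the siRNAs). The average of the siRNA changes, in place of 1 pooled group, called 3 members. No other setting moved a count of members by over 1.5 times. With libraries left out, log2FC values that changed sign ranged, with siADAR1 #1, from -0.54 to 1.02 for SMAD6, -0.061 to 0.61 for SMAD7, -0.14 to 0.95 for BMP4 and -1.73 to 0.72 for BAMBI. With siADAR1 #2 they ranged from -0.83 to 0.31 for SMAD6 and -2.29 to 0.16 for BAMBI, between the siRNAs from -1.28 to 0.28 for SMAD6, -0.20 to 0.46 for SMAD7 and -0.054 to 0.76 for ADAR, and with 1 pooled group from -0.58 to 0.56 for SMAD6 and -2.01 to 0.44 for BAMBI. The pooled SMAD6 value, -0.01, was 0.071 with median-centred libraries and 0.14 with voom. The cause of these changes was not tested. None of these values was called in either direction, except BAMBI at -2.29.

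Over all genes, the 3502 called with siADAR1 #1 became 1347 with a constant prior variance, 392 and 1248 without siControl replicate 1 and 2, and 1412 without siADAR1 #1 replicate 1. The 5541 called with siADAR1 #2 became 3150 without siControl replicate 1 and 3242 without siADAR1 #2 replicate 1, and the 0 of the pooled group became 3585 with the average. Median centring moved the median log2FC of all genes to 0.12 with siADAR1 #1 and -0.13 between the siRNAs, and voom to 0.16 with siADAR1 #2. ID1, ID3, SMAD9, BMP4 and BMPR2 kept their directions under both wherever they were called. Over 20858 genes, deviations of same-numbered libraries correlated with r = 0.106 (siADAR1 #1 with siControl), 0.110 (siADAR1 #2 with siControl) and 0.162 (siADAR1 #1 with #2). With only 2 replicates per group, these libraries were taken to share a number and no more, and a fit with the replicate block called 3, 5, 4 and 0 members in the comparisons, as without it. Depth limits ID2, ID4, BMP4 and BAMBI, at fewer than 100 normalized counts per library, and SMAD6, at 38.1 to 131, more than the other genes.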
